A study of Mus musculus with 14 samples.

Results

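The expression of 10 genes that mark macrophages in tumours was followed across 14 RNA-seq libraries of mouse 4T1 mammary tumours: Adgre1, Csf1r, Cd68, Mrc1, C1qa, C1qb, C1qc, Mertk, Trem2 and Cx3cr1. They were taken by symbol from the deposited gene tables, where each symbol stands on 1 row, and are 10 of the 54532 genes listed. All 10 passed the filter on low counts and are among the 15360 genes tested. The tumours grew from 4T1 cells, an established mouse mammary carcinoma line used as a model of triple-negative breast cancer, placed under the skin at the mammary gland. Mice were injected into the abdomen with PBS alone (4 libraries, called PBS), with cyclophosphamide at 100 mg/kg (5 libraries, CTX100) or with cyclophosphamide at 140 mg/kg (5 libraries, CTX140). Dosing began on day 9, at a tumour volume near 100 mm3, was repeated every 6 days, and tumours were taken on the third day after the third cycle. All groups share the implanted line, and no strain, sex or age of the mice is given in the labels. Cyclophosphamide is an alkylating drug that crosslinks DNA and is toxic to dividing cells, those of the bone marrow included. Whether each library is a separate animal is not said in the labels, so the tests measure the spread between libraries, which may be partly technical.

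Macrophages are phagocytes that arise from blood monocytes or from cells seeded in tissue before birth. Their survival depends on the receptor encoded by Csf1r, which is bound by the growth factors CSF1 and IL-34. Adgre1 encodes the surface protein F4/80, and Cx3cr1 encodes the receptor for fractalkine (CX3CL1), carried by monocytes and by some tissue macrophages. Cd68 encodes a glycoprotein of lysosomes and endosomes, and Mrc1 encodes the mannose receptor CD206. Mertk encodes a receptor tyrosine kinase that engulfs dying cells through the bridging proteins GAS6 and protein S. Trem2 encodes a lipid-sensing receptor that signals through the adaptor TYROBP. C1qa, C1qb and C1qc encode the chains of C1q, the recognition part of the first complement component, which macrophages secrete. The labels describe the sample as tumour and its cells as the carcinoma, but each library is RNA from a whole tumour. In such bulk samples, fewer macrophages and less RNA per macrophage cannot be told apart.

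The starts of 7 of the 10 genes were found in RefSeq (GRCm38.p6), each as a window from 250 bases before to 50 bases after the start given there. Adgre1, Csf1r and C1qa had no entry. A pair of motifs was searched on both strands: GAGGAA, the core bound by the myeloid factor PU.1, and TGCTGA, a short site bound by Maf factors; they do not overlap in these windows. GAGGAA was found in 5 of the 7 windows (Cd68, Mrc1, C1qb, C1qc and Trem2), and in 28.3% of all 32851 promoter windows of that length. TGCTGA was found in 1 of the 7, C1qb, and in 19.5% of all windows. A match is a description of the letters only. Of these windows, 5 are shown because they belong to the C1q chains, to the genes with the highest measured differences under the higher dose and to Cx3cr1, the gene with the largest decrease; matches are in capitals, and a match on the opposite strand reads TTCCTC.
C1qb (chr4:136886151-136886450, minus strand): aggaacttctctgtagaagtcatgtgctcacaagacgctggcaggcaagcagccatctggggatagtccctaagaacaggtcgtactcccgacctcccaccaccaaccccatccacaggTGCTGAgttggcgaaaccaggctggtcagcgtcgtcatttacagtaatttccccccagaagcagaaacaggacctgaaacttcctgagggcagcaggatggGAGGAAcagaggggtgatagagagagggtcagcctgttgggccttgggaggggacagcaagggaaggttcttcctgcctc
C1qc (chr4:136892865-136893164, minus strand): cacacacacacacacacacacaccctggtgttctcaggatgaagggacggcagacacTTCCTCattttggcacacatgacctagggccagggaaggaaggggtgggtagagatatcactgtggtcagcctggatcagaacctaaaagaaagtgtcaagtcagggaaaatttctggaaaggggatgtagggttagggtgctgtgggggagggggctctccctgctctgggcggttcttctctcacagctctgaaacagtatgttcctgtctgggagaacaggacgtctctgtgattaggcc
Trem2 (chr17:48346151-48346450, plus strand): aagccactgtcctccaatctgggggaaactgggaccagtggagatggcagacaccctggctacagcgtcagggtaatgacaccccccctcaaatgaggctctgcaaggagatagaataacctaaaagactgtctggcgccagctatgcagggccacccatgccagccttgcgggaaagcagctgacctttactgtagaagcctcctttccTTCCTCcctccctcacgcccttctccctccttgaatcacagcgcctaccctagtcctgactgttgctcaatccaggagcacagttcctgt
Cd68 (chr11:69666121-69666420, minus strand): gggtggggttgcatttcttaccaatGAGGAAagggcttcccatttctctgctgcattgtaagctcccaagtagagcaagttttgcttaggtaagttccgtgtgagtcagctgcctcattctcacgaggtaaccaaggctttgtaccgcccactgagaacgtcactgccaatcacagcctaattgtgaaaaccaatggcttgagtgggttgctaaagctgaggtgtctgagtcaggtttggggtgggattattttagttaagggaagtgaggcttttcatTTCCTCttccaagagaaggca
Cx3cr1 (chr9:120068247-120068546, minus strand): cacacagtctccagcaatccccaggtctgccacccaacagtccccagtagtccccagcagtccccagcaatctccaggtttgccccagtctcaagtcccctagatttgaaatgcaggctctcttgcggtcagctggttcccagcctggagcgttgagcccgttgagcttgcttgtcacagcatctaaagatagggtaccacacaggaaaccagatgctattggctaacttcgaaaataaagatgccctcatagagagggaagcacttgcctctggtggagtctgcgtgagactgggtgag
Neither motif was found in the Mertk or the Cx3cr1 window. The Cx3cr1 window lies wholly inside the gene as listed in the deposited data. It does not cover the minus-strand start listed there, at 120069879.

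Library totals, in 1000000 counts, ranged over 15.2 to 17.1 for PBS, 15.9 to 19.3 for CTX100 and 14.4 to 18.8 for CTX140. The mitochondrial share of counts averaged 4.72 ± 1.02% for the 4 PBS libraries, 4.53 ± 1.52% for the 5 CTX100 libraries and 6.02 ± 2.23% (SD) for the 5 CTX140 libraries. The 8 markers of carcinoma epithelium summed to between 1233 CPM (CTX140 2) and 2188 CPM (PBS 2). The sum does not describe each gene, as 5 of the 8 were called higher in CTX140 than in PBS by the test described below. CPM is the count per 1000000 after TMM scaling of the totals. The library CTX140 2 stands apart for the macrophage genes. It had the highest CPM of all 14 libraries for 8 of the 10 genes; the exceptions were Mrc1, highest in PBS 3, and Cx3cr1, highest in PBS 1. Its Adgre1 level was 7.98 times the median of the other 4 CTX140 libraries, and its levels of the other 9 genes were 2.08 to 4.15 times that median. Another 20 macrophage genes summed to 12874 CPM in CTX140 2 and to at most 5797 CPM elsewhere, and 8 fibroblast markers to 6573 CPM against at most 3834. Values in CTX140 that rest on this library are therefore also given without it.

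**Figure D1:**
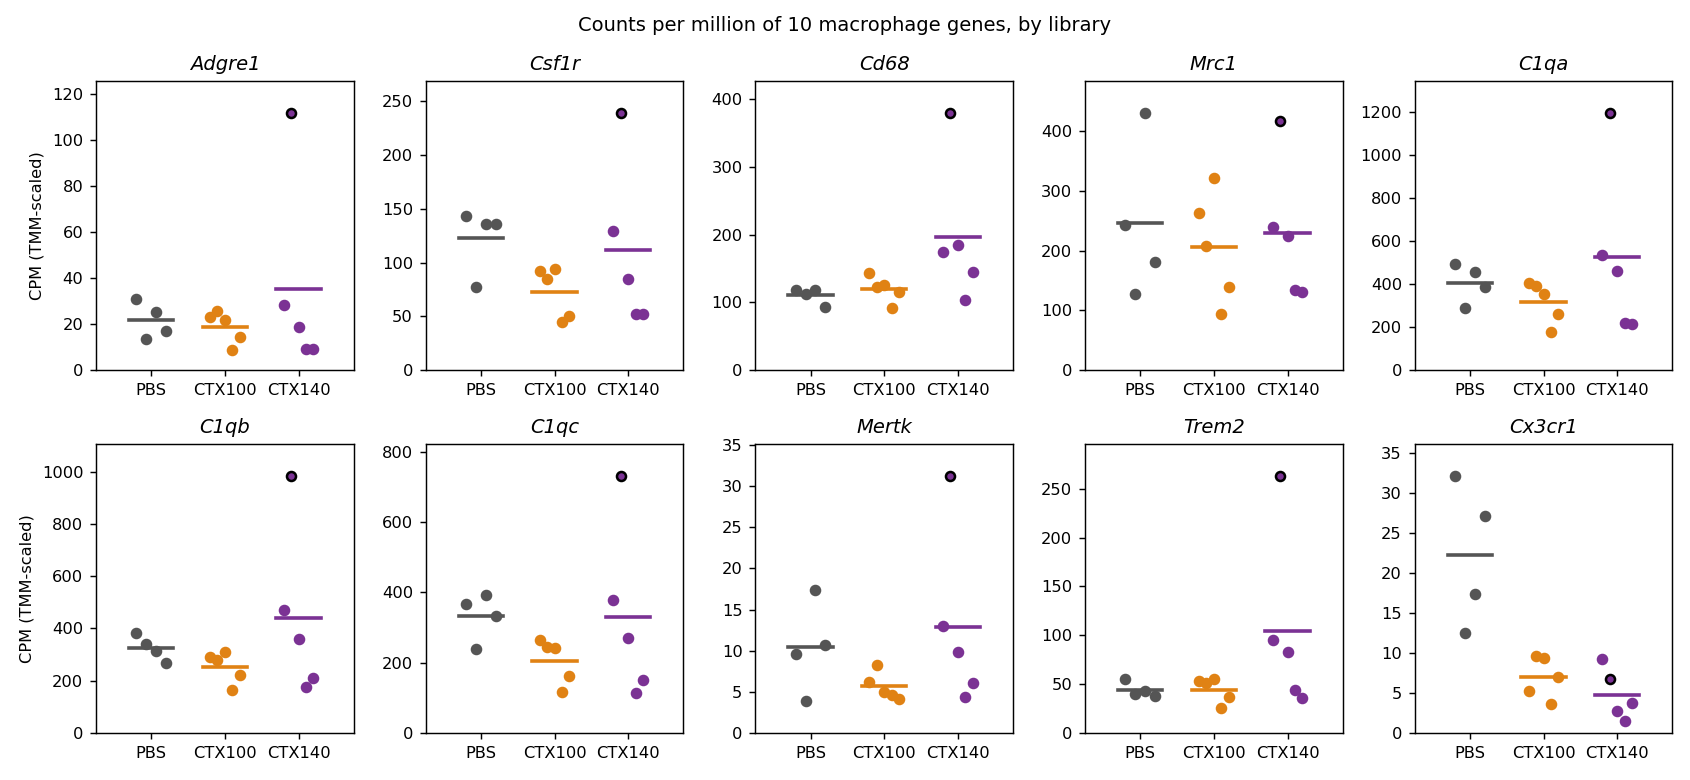
CPM of each of the 10 genes in every library, by group, on linear axes from 0 with a scale for each gene; bars are group means, and the library CTX140 2 has a black rim. CTX140 2 lies above all other libraries in 8 panels, while in the Cx3cr1 panel all treated libraries lie below all PBS libraries.

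In PBS tumours the C1q chains were the most abundant transcripts of the set. Levels between genes are compared as FPKM, which divides the count by gene length. Mean FPKM in PBS was 389 for C1qa, 298 for C1qb, 172 for C1qc, 87.8 for Cd68, 38.5 for Mrc1, 25.1 for Csf1r, 8.89 for Trem2, 6.71 for Adgre1, 4.93 for Cx3cr1 and 2.39 for Mertk. The order was the same in CTX100. In CTX140 the last 2 changed places, with Mertk at a mean of 2.98 and Cx3cr1 at 1.06 FPKM. Among neighbours in this order, the PBS ranges did not overlap between C1qb and C1qc, C1qc and Cd68, Cd68 and Mrc1, or Csf1r and Trem2. They overlapped for C1qa and C1qb, Mrc1 and Csf1r, Trem2 and Adgre1, Adgre1 and Cx3cr1, and Cx3cr1 and Mertk. C1qb exceeded C1qc, Cd68 exceeded Mrc1, Mrc1 exceeded Csf1r, and Trem2 exceeded Adgre1 in all 14 libraries. C1qc exceeded Cd68 in 9 of the 14, among them all 4 PBS libraries, so Cd68 was the higher of the pair in 5 of the 10 treated libraries. C1qa exceeded C1qb, Csf1r exceeded Trem2, and Adgre1 exceeded Cx3cr1 in 13 of the 14. Cx3cr1 exceeded Mertk in 6 of the 14, among them 3 of the 4 PBS libraries.

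The higher dose was accompanied by lower Cx3cr1 and higher Cd68 RNA than PBS, and no other of the 10 genes passed the test. Counts were tested gene by gene with edgeR's quasi-likelihood test, with Benjamini-Hochberg adjustment over all 15360 genes, and 0.05 was the threshold for calling a gene. In CTX140 against PBS, 2 of the 10 were called, 1 higher and 1 lower, where 21.3% of all genes tested were called, 11.1% higher and 10.1% lower. With the lower dose, none of the 10 was called against PBS and 1.60% of all genes were. At an unadjusted edgeR p under 0.05 that comparison held 1 of the 10 (Cx3cr1) and 2748 of all 15360 genes. DESeq2 called the same 1 of the 10, and 829 of all genes. In CTX140 against CTX100, none of the 10 was called by edgeR or by DESeq2, and edgeR called 1.25% of all genes. An unadjusted edgeR p under 0.05 was held by 3 of the 10 and by 3430 of all 15360 genes. The share called among the 10 was thus no larger than that among all genes in CTX140 against PBS. The median log2 fold change of the 10 was -0.36 in CTX100 against PBS (all genes -0.01), with 8 of 10 negative. It was 0.34 in CTX140 against PBS (all genes 0.02), with 6 of 10 positive, and 0.72 in CTX140 against CTX100 (all genes 0.03), with 9 of 10 positive. Both values rest on CTX140 2. Without it, the median was -0.36 in CTX140 against PBS, with 2 of 10 positive (Cd68 and Trem2), and 0.16 in CTX140 against CTX100, with 7 of 10 positive, where the median of all genes was 0.02 in each. Comparisons that share a group share its libraries: both doses are set against the same 4 PBS libraries.

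**Figure D2:**
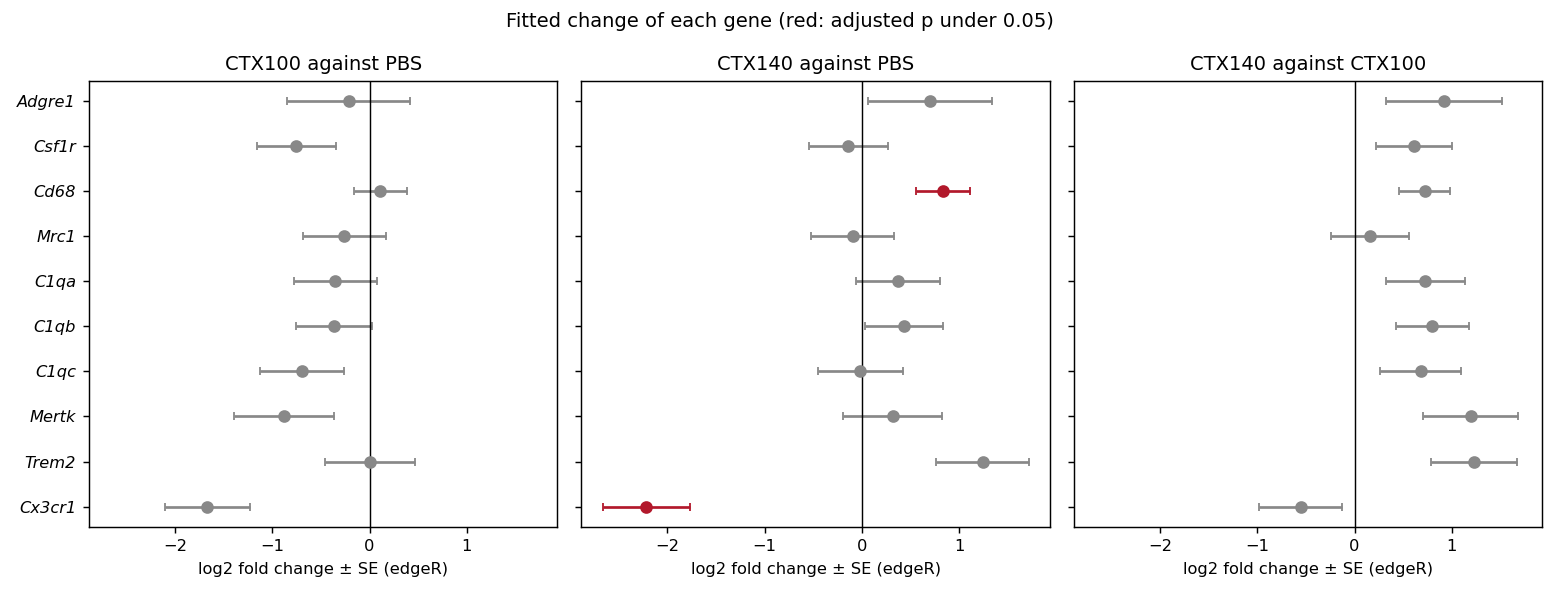
Fitted log2 fold change of each gene in the 3 comparisons, with bars for the SE and red for genes called at an adjusted p under 0.05. Only Cx3cr1 and Cd68 in CTX140 against PBS are red, and Cx3cr1 lies lowest in each comparison.

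Cx3cr1, the fractalkine receptor gene, had the largest decrease. The gene lies on chr9 at 119901616 to 120069879 on the minus strand (mm10), a span that also holds other genes. Its CPM was 32.2, 12.5, 17.4 and 27.2 in PBS, 5.31, 9.68, 9.42, 3.64 and 7.05 in CTX100, and 9.23, 6.71, 2.70, 1.50 and 3.75 in CTX140. Every treated library was lower than every PBS library. The counts behind these values ran from 22 to 534. In CTX140 against PBS, Cx3cr1 fell by 2.22 ± 0.45 on the log2 scale (SE), with an edgeR adjusted p of 0.00375. It was called under all 18 alternative settings, with an adjusted p of at most 0.0158, and without CTX140 2 the fold change was -2.37 (adjusted p = 0.00624). In CTX100 against PBS the fold change was -1.67 ± 0.44, with an edgeR adjusted p of 0.0691, which misses the threshold. DESeq2 gave this difference an adjusted p of 0.00447, edgeR 0.0391 without PBS 2, and between 0.104 and 0.198 without any other single library. CTX140 differed from CTX100 by -0.55 ± 0.43, with a 95% interval of -1.46 to 0.35 that holds 0. Cx3cr1 was the 1 gene of the 10 whose CPM did not overlap between PBS and CTX100, and the 1 gene between PBS and CTX140. Of all genes tested, 8.72% and 14.3% did not overlap in these comparisons. No gene of the 10 was without overlap between the doses, against 6.04% of all genes.

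Csf1r, the receptor gene on which macrophage survival depends, did not pass the test in any comparison. Its CPM was 143, 77.7, 136 and 135 in PBS, 92.2, 84.8, 93.7, 44.5 and 49.9 in CTX100, and 130, 239, 85.1, 51.8 and 52.1 in CTX140. PBS 2 was well under the other 3 PBS libraries, and its range made PBS overlap CTX100; the other 3 PBS libraries were above all 5 CTX100 libraries. The log2 fold change was -0.75 ± 0.41 in CTX100 against PBS (edgeR adjusted p = 0.356) and -0.14 ± 0.41 in CTX140 against PBS (adjusted p = 0.832). Without CTX140 2 the second value was -0.62. In the GENCODE M21 annotation, 873 of the 5774 exonic bases of Csf1r are shared with Hmgxb3 on the other strand. The deposited table lists Csf1r with other coordinates and a length of 4885 bases, so whether the shared bases were counted is not known. Hmgxb3 had at most 343 counts in a library, and the strand setting is not given. Whether its reads entered the Csf1r counts was not tested.

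Adgre1, the F4/80 gene, took its direction from a single library. Its CPM was 31.0, 13.5, 25.4 and 17.2 in PBS, 23.3, 25.6, 21.7, 8.70 and 14.5 in CTX100, and 28.3, 112, 18.6, 9.43 and 9.15 in CTX140. Only CTX140 2 lay above the PBS range, and CTX140 4 and 5 lay below it. The log2 fold change in CTX140 against PBS was 0.70 ± 0.64 with that library (edgeR adjusted p = 0.456) and -0.41 without it. CTX100 differed from PBS by -0.21 ± 0.63 (adjusted p = 0.900).

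Cd68, the lysosomal glycoprotein gene, was the least variable of the set under PBS. It lies on chr11 at 69664213 to 69666153 on the minus strand (mm10). Its CPM was 118, 113, 119 and 93.4 in PBS, 143, 122, 125, 91.4 and 116 in CTX100, and 174, 379, 184, 103 and 145 in CTX140. All CTX140 libraries but CTX140 4, which was inside the PBS range, were above every PBS library. Cd68 rose by 0.83 ± 0.28 on the log2 scale in CTX140 against PBS, a 1.78-fold difference, with an edgeR adjusted p of 0.0462. The call holds only narrowly. It was lost without any 1 of the 4 PBS libraries and without CTX140 1, 2 or 3, where the adjusted p was 0.0536 to 0.136, and kept without CTX140 4 (0.0114) or 5 (0.0334). Without CTX140 2 the fold change was 0.46, with an adjusted p of 0.0792. CTX100 differed from PBS by 0.11 ± 0.28 (adjusted p = 0.878), and CTX140 from CTX100 by 0.72 ± 0.26 (adjusted p = 0.129; 0.0473 without CTX140 4).

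Mrc1, the mannose receptor gene, overlapped between all groups. Its CPM was 243, 128, 430 and 181 in PBS, 263, 208, 321, 94.8 and 139 in CTX100, and 240, 416, 225, 134 and 131 in CTX140. PBS 3 was the highest of all libraries and CTX100 4 the lowest. The log2 fold change was -0.26 ± 0.42 in CTX100 against PBS (95% interval -1.16 to 0.65) and -0.10 ± 0.42 in CTX140 against PBS (-1.0 to 0.81). Neither passed the test, and these intervals include changes larger than 1.5-fold in both directions.

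Trem2, the lipid-sensing receptor gene, had the largest fitted increase of the 10 in CTX140 against PBS, but the test did not call it. It lies on chr17 at 48346401 to 48354147 on the plus strand (mm10). Its CPM was 54.8, 40.0, 43.4 and 38.1 in PBS, 52.9, 51.4, 55.0, 25.9 and 36.5 in CTX100, and 95, 263, 82.9, 43.9 and 35.5 in CTX140. CTX140 1, 2 and 3 were above every PBS and CTX100 library, and CTX140 4 and 5 were not. The log2 fold change was 1.24 ± 0.47 in CTX140 against PBS (edgeR adjusted p = 0.0755) and 1.23 ± 0.44 in CTX140 against CTX100 (adjusted p = 0.128). Without CTX140 2 these values were 0.55 (adjusted p = 0.222) and 0.54 (0.344). Without CTX140 4 or 5 the first was called, with adjusted p of 0.0432 and 0.0288, and without CTX140 5 the second was too, at 0.0486. CTX100 differed from PBS by 0.01 ± 0.46.

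Mertk, the receptor for GAS6 and protein S, was the lowest of the 10 in PBS tumours. Its CPM was 9.64, 3.83, 17.4 and 10.7 in PBS, 6.15, 8.30, 5.01, 4.61 and 4.14 in CTX100, and 13.0, 31.3, 9.88, 4.37 and 6.05 in CTX140. PBS 1, 3 and 4 were above all CTX100 libraries, and PBS 2 was below them. The log2 fold change was -0.88 ± 0.51 in CTX100 against PBS (edgeR adjusted p = 0.388), 0.31 ± 0.51 in CTX140 against PBS (adjusted p = 0.691) and 1.19 ± 0.49 in CTX140 against CTX100 (adjusted p = 0.168). Without CTX140 2 the last 2 were -0.32 and 0.56.

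The 3 C1q genes lie side by side on the minus strand of chr4 (mm10): C1qb at 136880129 to 136886187, C1qc at 136889804 to 136893065 and C1qa at 136895917 to 136898803. C1qa had a CPM of 494, 291, 454 and 385 in PBS, 403, 393, 356, 175 and 262 in CTX100, and 536, 1194, 462, 219 and 217 in CTX140. C1qb had 381, 341, 313 and 268 in PBS, 290, 280, 308, 163 and 222 in CTX100, and 469, 983, 359, 177 and 209 in CTX140. C1qc had 366, 240, 391 and 333 in PBS, 264, 244, 242, 116 and 162 in CTX100, and 380, 732, 271, 112 and 151 in CTX140. All 3 were highest in CTX140 2 and lowest in CTX100 4 or CTX140 4, and every group overlapped every other. In CTX140 against PBS the log2 fold changes were 0.37 ± 0.43 for C1qa, 0.43 ± 0.40 for C1qb and -0.02 ± 0.44 for C1qc, with edgeR adjusted p between 0.462 and 0.984. Without CTX140 2 they were -0.18, -0.10 and -0.54. CTX100 differed from PBS by -0.35 ± 0.43, -0.37 ± 0.39 and -0.69 ± 0.43, with adjusted p between 0.427 and 0.714.

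The ratio of C1qc to C1qa was lower in all 10 treated libraries than in all 4 PBS libraries, but the difference did not pass the test after adjustment. C1qc per C1qa, as a ratio of FPKM within a library, was 0.399, 0.444, 0.464 and 0.466 in PBS. It was 0.352, 0.334, 0.366, 0.356 and 0.333 in CTX100, and 0.381, 0.330, 0.316, 0.276 and 0.375 in CTX140. A two-sided exact permutation test of the log2 ratio, chosen after the values were seen, gave p = 0.00794 for CTX100 against PBS, the smallest p it can give, and p = 0.0159 for CTX140 against PBS. Adjusted over the 9 chain comparisons, both were 0.0714, so neither passed. How often ratios of other gene pairs separate PBS from treated libraries was not tested. The log2 differences were -0.35 and -0.41. C1qb per C1qa spanned 0.658 to 1.12 under PBS, 0.681 to 0.887 under CTX100 and 0.744 to 0.923 under CTX140, and these ranges overlapped. C1qc per C1qb spanned 0.397 to 0.705 under PBS, 0.401 to 0.513 under CTX100 and 0.356 to 0.456 under CTX140, and these overlapped too, with adjusted exact permutation p of 0.304 and 0.167 against PBS.

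**Figure D3:**
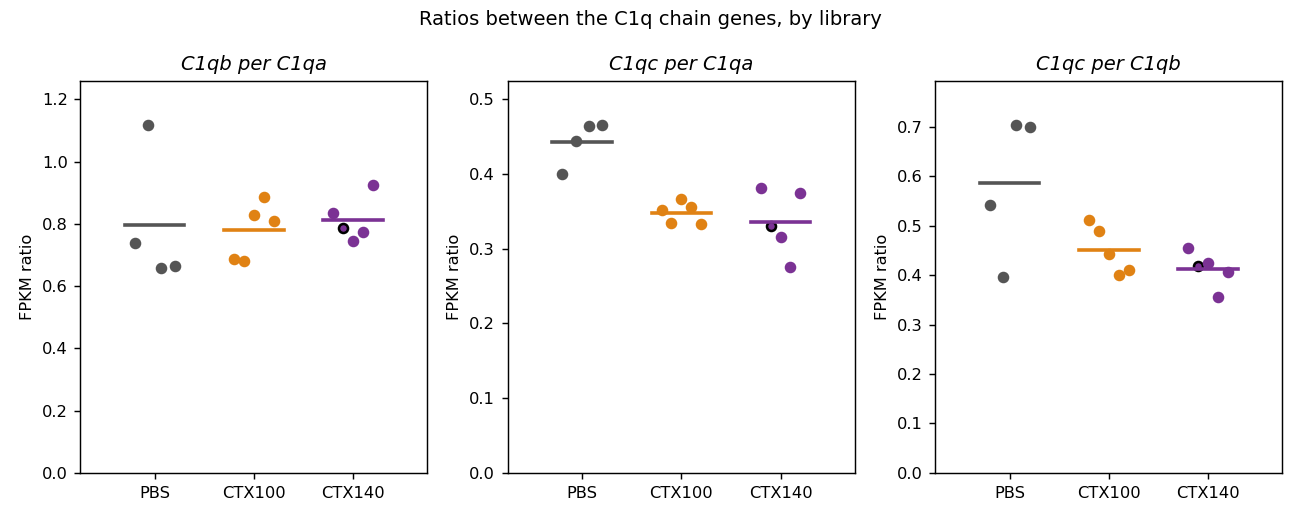
Ratio of FPKM between C1q chains in every library, by group, with bars at the group means. For C1qc per C1qa the PBS libraries span 0.399 to 0.466 and all treated libraries lie at 0.381 or below.

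To set the genes against another gene of the set, each was also tested relative to Csf1r. Whether Csf1r follows the amount of macrophage RNA in these tumours was not tested. Its own log2 fold change by counts was -0.75 in CTX100 against PBS, at percentile 2.73 of all genes. The log2 CPM of Csf1r was subtracted in every library, with a prior count of 2, and the difference was tested with limma over 15359 genes. Since every gene then carries the spread of Csf1r, the SE was 0.46 to 0.51 for the 9 genes. Limma pools the variances as if they were independent between genes, but here all share that spread. All limma p values on this scale may therefore be too small and are read with that limit. On this scale the median of all genes moved by 0.78 in CTX100 against PBS, 0.37 in CTX140 against PBS and -0.41 in CTX140 against CTX100, so values are read against those shifts. In CTX140 against PBS, 1 of 9 genes was called, and 6.02% of all genes were. Cx3cr1 fell by 2.01 ± 0.51 relative to Csf1r (limma adjusted p = 0.00281), and with Adgre1 in place of Csf1r the value was -2.45, with an adjusted p of 0.0714. None of the 9 was called in CTX100 against PBS, where 3.24% of all genes were. An unadjusted limma p under 0.05 was held there by none of the 9 and by 3743 of all 15359 genes. None was called in CTX140 against CTX100, where 0.0195% of all genes were. There 1 of the 9 (Cx3cr1) and 686 of all 15359 genes had an unadjusted limma p under 0.05.

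Trem2 per Csf1r was higher in every treated library than in every PBS library. The ratio of CPM was 0.383, 0.515, 0.320 and 0.281 in PBS, 0.574, 0.606, 0.587, 0.582 and 0.731 in CTX100, and 0.732, 1.10, 0.975, 0.846 and 0.682 in CTX140. The doses overlapped each other only through CTX100 5 and CTX140 5. In CTX100 against PBS, Trem2 relative to Csf1r differed by 0.75 ± 0.49 on the log2 scale (limma adjusted p = 0.255), which is no more than the 0.78 by which the median of all genes moved. By counts Trem2 itself differed there by 0.01 and Csf1r by -0.75. Relative to Csf1r, Trem2 differed by 1.22 ± 0.49 in CTX140 against PBS, where the median of all genes moved by 0.37, with a limma adjusted p of 0.139. Without CTX140 2 the value was 1.13, with a limma adjusted p of 0.0328. By counts Csf1r then differed by -0.62 and Trem2 by 0.55 (edgeR adjusted p = 0.222). On the Csf1r scale 2348 of all genes were then called, against 924 with all libraries. The lower p was thus not particular to Trem2. With the variance taken from each gene alone, a setting chosen after seeing the data, the adjusted p was 0.00401, and Cd68 was then called too (1.05, adjusted p = 0.0464). Cd68 relative to Csf1r had a limma adjusted p of 0.276 with moderated variances and 0.0489 without CTX140 2. Without that library its call by counts was lost (0.46, edgeR adjusted p = 0.0792).

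C1qa per Csf1r spanned 2.84 to 3.75 under PBS, 3.80 to 5.25 under CTX100 and 4.14 to 5.42 under CTX140, again with no overlap with PBS. In CTX100 against PBS its log2 difference relative to Csf1r was 0.39 ± 0.51 (limma adjusted p = 0.495), smaller than the 0.78 of the median gene and at percentile 10.4 of all genes, and by counts C1qa differed by -0.35. With the higher dose against PBS the log2 difference relative to Csf1r was 0.45 ± 0.51 (adjusted p = 0.824), where the median of all genes moved by 0.37. C1qc per Csf1r was 2.46 to 3.09, 2.58 to 3.25 and 2.16 to 3.19 in the same order, and its groups overlapped. Cx3cr1 per Csf1r was 0.225, 0.161, 0.128 and 0.201 in PBS, 0.0576, 0.114, 0.101, 0.0816 and 0.141 in CTX100, and 0.0711, 0.0281, 0.0317, 0.0290 and 0.0719 in CTX140. On this scale CTX100 overlapped PBS through CTX100 5 alone, and CTX140 2 was the lowest of all libraries. Between PBS and CTX100, 2 of 9 genes did not overlap on this scale (C1qa and Trem2), against 14.1% of all genes. Between PBS and CTX140, 3 of 9 did not (C1qa and Trem2 higher, Cx3cr1 lower), against 5.98%. Between the doses all 9 overlapped, and 0.482% of all genes did not.

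**Figure D4:**
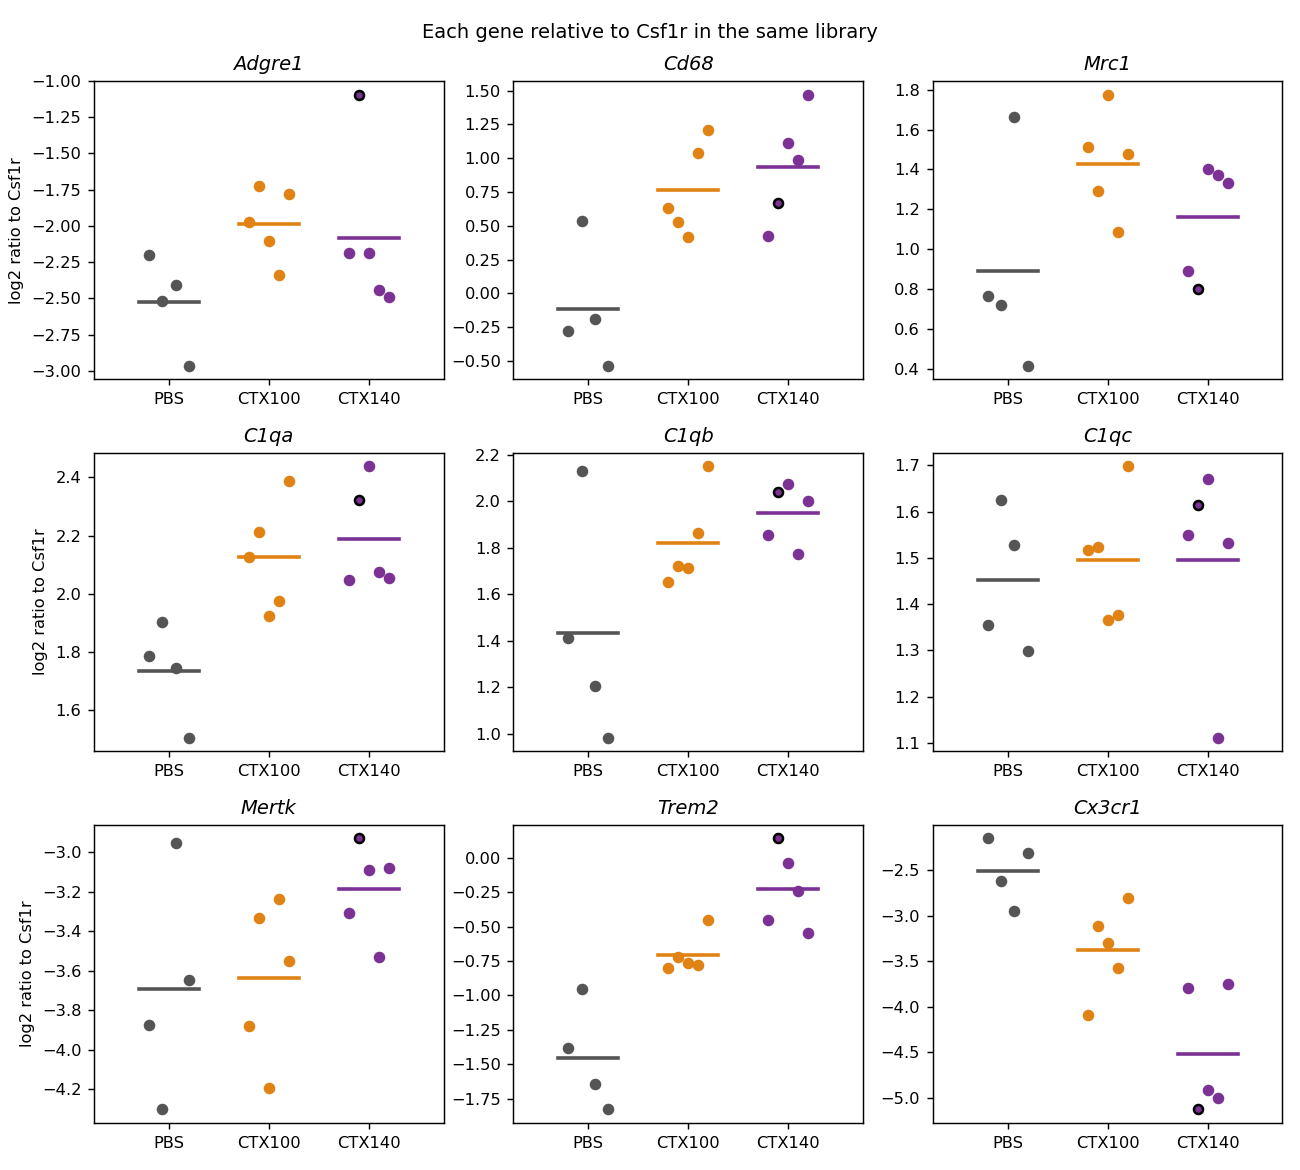
Log2 CPM (prior count 2) of 9 genes minus that of Csf1r in the same library, by group, with bars at the group means and a scale for each gene. The PBS libraries lie below all treated libraries for Trem2 and C1qa and above all CTX140 libraries for Cx3cr1; in CTX100 the differences of Trem2 (0.75) and C1qa (0.39) are below the 0.78 of the median gene.

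The genes other than Cx3cr1 varied together from library to library. Over 14 libraries, the 36 pairs without Cx3cr1 had a median Pearson r of log2 CPM of 0.84 (0.57 to 0.98) and a median Spearman rho of 0.79. The 9 pairs with Cx3cr1 had a median r of 0.37 (-0.16 to 0.60) and a median rho of 0.34. After centring within groups the medians were 0.90 and 0.66. Leaving out CTX140 2 and CTX100 4, the 2 libraries farthest from the median of the set's mean level, they were 0.71 and 0.50 over 12 libraries. The lowest of the 36 was then 0.03. All values in a library share its depth and its mix of cells, so these are given as a description. C1qa followed the mean of the other 9 most closely (r = 0.99) and Cd68 less closely (r = 0.72).

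**Figure D5:**
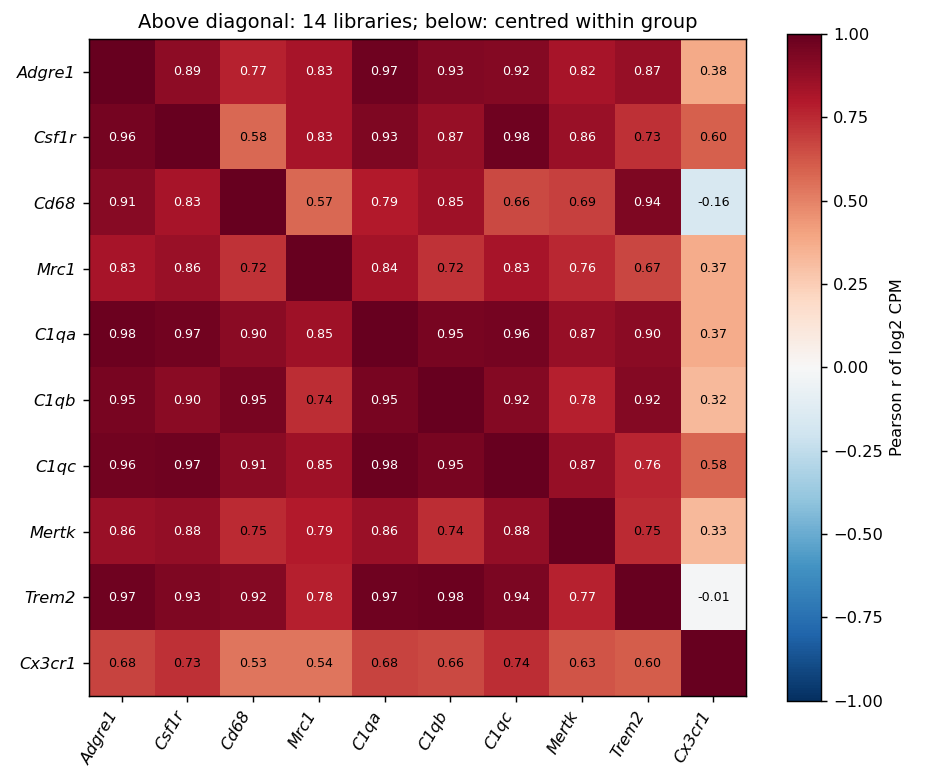
Pearson r between the log2 CPM of each pair of genes, over 14 libraries above the diagonal and after centring within groups below it. The Cx3cr1 column holds r of -0.16 (with Cd68) to 0.60, and the other pairs above the diagonal 0.57 to 0.98.

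Among 13395 tested protein-coding genes outside the set, the 8 most like the mean standardised level of the 10 were Gm2a (r = 0.98), Lyz2 (0.97), Mpeg1 (0.96), Fgl2 (0.96), Tbxas1 (0.96), Ms4a6c (0.96), March1 (0.95) and Lmo2 (0.95), over 14 libraries. Lyz2 encodes lysozyme and Mpeg1 encodes perforin-2, both abundant in myeloid phagocytes. Within groups the r of these 8 was 0.95 to 0.98, and without CTX140 2 it was 0.91 to 0.96.

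The partners of these receptors were compared with the same edgeR test, and each count is read against the 21.3% of all genes called in CTX140 against PBS (11.1% higher), or 16.8% (8.96% higher) without CTX140 2. That setting was added for the lists after seeing the data. Of 7 ligand genes (Csf1, Il34, Cx3cl1, Gas6, Pros1, Apoe and Clu), 1 (14.3%) was called in CTX140 against PBS, a share below that of all genes, and none in the other comparisons. Gas6, which bridges dying cells to MERTK, rose by 1.39 ± 0.42 (adjusted p = 0.0320), a call lost without CTX140 2 (1.11, adjusted p = 0.0780). The list summed to 8845 CPM in that library and to at most 4692 CPM in the other CTX140 libraries. Cx3cl1, the CX3CR1 ligand gene, differed by -0.44 ± 0.27 in log2 units (adjusted p = 0.246), and Csf1 by -0.21 ± 0.11 (adjusted p = 0.187). The median of the 7 was -0.21. Apoe, a lipoprotein gene whose product binds TREM2, averaged 3173 ± 3041 CPM in CTX140 (SD, n = 5) and 1104 CPM in PBS, and was not called (1.52 ± 0.57, edgeR adjusted p = 0.0714). Without CTX140 2 its fold change was 0.80 (adjusted p = 0.224). Of 7 genes of TYROBP signalling, 1 (14.3%) was called in CTX140 against PBS, the kinase gene Syk, which was higher (1.08 ± 0.21, adjusted p = 0.00285). Syk was called without CTX140 2 as well (1.08, adjusted p = 0.00657), while the median of the list went from 0.45 to 0.24.

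Of 10 genes for uptake of dying cells, 4 (40%) were called in CTX140 against PBS, 1 higher and 3 lower, with a median of -0.24. Without CTX140 2, 1 of the 10 was called. Itgav, an integrin subunit gene, fell by 0.67 ± 0.15 (edgeR adjusted p = 0.00637; 0.0144 without CTX140 2), and Axl, a relative of Mertk, fell by 0.54 ± 0.16 (adjusted p = 0.0252; 0.0551 without it). Both genes are also expressed outside macrophages. Of 7 C1q partner and early complement genes, 4 (57.1%) were called, all higher, with a median of 1.29: C3, C4b, Serping1 and C2. The same 4 were called without CTX140 2, with a median of 1.10. C1ra, C1s1 and Cd93 were not called with or without that library. Without it they differed by 0.20, 0.26 and -0.72 (edgeR adjusted p = 0.523, 0.441 and 0.164). Serping1, the C1 inhibitor gene, averaged 37.9 ± 9.83 CPM in PBS (SD, n = 4) and 221 ± 112 in CTX140 (n = 5), an increase of 2.54 ± 0.29 in log2 units (adjusted p = 0.000118). C2, a complement protease gene, rose by 1.69 ± 0.28 (adjusted p = 0.000892). In CTX140 against CTX100, 2 of the 7 were called, both higher, where 1.25% of all genes were called. Without CTX140 2, 1 of the 7 (Serping1) was called, and it was the 1 gene called of all genes tested.

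Of 9 macrophage transcription factor genes, 3 (33.3%) were called in CTX140 against PBS, all higher, with a median of 0.56, and 2 (22.2%) without CTX140 2, with a median of 0.34. Tfec rose by 1.81 ± 0.44 (edgeR adjusted p = 0.0109; 0.0244 without CTX140 2) and Irf8, needed for monocyte development, by 0.60 ± 0.17 (adjusted p = 0.0196; 0.0484 without it). Of 19 tested other macrophage genes, 1 (5.26%) was called, a share below that of all genes: Fcgr3, a low-affinity Fc receptor gene (0.74 ± 0.23, adjusted p = 0.0309), with a median of 0.26. Without CTX140 2, Fcgr3 was not called (0.48, adjusted p = 0.0607) and the median was -0.04; the 1 gene called was then Msr1, a scavenger receptor gene, which fell by 0.76 (adjusted p = 0.0209) and is named after its value was seen. None of the genes of these 6 lists was called in CTX100 against PBS. Medians of all 15360 genes stood at 0.02 in CTX140 against PBS and -0.01 in CTX100 against PBS.

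Markers of other cells moved too, and their part in the results above was not tested. In CTX140 against PBS, where 11.1% of all genes were called higher, 4 of 10 monocyte genes were, among them Plac8 (1.96 ± 0.37, edgeR adjusted p = 0.00291) and Vcan (1.28 ± 0.29, adjusted p = 0.00704). Fold changes of the 10 were positive for 6 and negative for 4, with a median of 0.46, and none was called lower. Without CTX140 2 the negative ones were Ccr2 (-0.31), F13a1 (-0.90), Ace (-0.44) and Treml4 (-0.66), none of them called. Of 8 fibroblast genes, 6 were called higher. Pdgfra and Pdgfrb were not called and had negative fold changes (-0.57 and -0.16 without CTX140 2). The summed CPM of the list spanned 789 to 1305 under PBS, 1319 to 2285 under CTX100 and 2336 to 6573 under CTX140. Col3a1, a fibrillar collagen gene, rose by 2.55 ± 0.32 and Dpt by 4.44 ± 0.58 (adjusted p = 0.000216 and 0.000329). All 5 tested adipocyte genes and 5 of 8 carcinoma epithelium genes were called higher. Those with the smallest p were Adipoq (4.46 ± 0.71), Plin4 (3.25 ± 0.57), Krt19 (3.57 ± 0.68) and Krt14 (3.41 ± 0.66). Krt8, Krt18 and Cldn4 were not called, and without CTX140 2 their fold changes were 0.02, -0.06 and 0.56. Without CTX140 2 the same genes of these 4 lists were called, and the fibroblast sum was at most 3834 CPM in CTX140. For the monocyte list these sums were 222 to 424 (PBS), 312 to 456 (CTX100) and 292 to 659 (CTX140).

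With the higher dose, 1 of 6 general leukocyte genes was called higher (Cd53, 0.68 ± 0.20), 1 of 8 neutrophil genes (Cxcr2, 0.78 ± 0.18), 2 of 9 dendritic cell genes (Cd209a, 2.60 ± 0.71, and Batf3, 0.63 ± 0.18) and 2 of 6 T and NK cell genes (Nkg7, 1.81 ± 0.41, and Cd8a, 1.63 ± 0.55). Among 4 osteoclast genes 1 was called higher, Ctsk, the cathepsin K gene (1.76 ± 0.53). The shares of the leukocyte (16.7%) and neutrophil (12.5%) lists are near the 11.1% of all genes, with 1 gene called on each. Without CTX140 2, Cd53, Cd8a and Ctsk were not called (edgeR adjusted p of 0.0621, 0.0882 and 0.0849), and the other genes called above still were. Of the 9 dendritic cell genes, 3 were then negative, none called: Clec9a (-0.80), Wdfy4 (-0.28) and Xcr1 (-0.11). The T and NK list summed to 356 CPM in CTX140 1 and to at most 142 CPM in the other CTX140 libraries. For the dendritic cell list these sums were 150 CPM and at most 73.7 CPM. The lists were not tested without CTX140 1. None of 2 B cell, 5 blood endothelial or 2 lymphatic endothelial genes was called by edgeR. Of these, 3 blood endothelial genes had an unadjusted edgeR p under 0.05, as did 5486 of all 15360 genes. The general leukocyte list summed to 813 to 1131 CPM in PBS and 783 to 2054 in CTX140, with CTX140 1 highest and CTX140 2 next at 1786. Against PBS, the 2 genes called on all these lists in CTX100 were fibroblast genes.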

How the data were processed

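RNA-seq of 14 tumour libraries was deposited by the authors as raw read counts per gene (54532 genes) and as FPKM, which equal the counts divided by gene length and by 1 constant per library. The build mm10 and DESeq2 are named in the submitters' processing notes; for the aligner, the counter and the strand setting, nothing is given in the sources used here. Groups came from the labels. Counts of all 14 libraries were fitted with edgeR 4.0.16 (R 4.3.3): TMM, filterByExpr, robust quasi-likelihood test, 1 mean per group, two-sided, called at an adjusted p under 0.05. SE is the log2 fold change divided by the root of F, and intervals are 95%. Values relative to Csf1r were tested with limma 3.58.1 (prior count 2, trend, robust). All genes of the set are described, up to 2 called genes with the smallest p per list are named, and the 8 most alike genes. Cx3cl1, Csf1, Apoe and any further list genes were named after their values were seen. The genes and lists were chosen with earlier results of these data known. Scripts were tested on simulated data. The alternatives were other scaling, filters, DESeq2 1.42.0, FPKM with limma on a log2 scale (pseudocounts 1 and 0.1), fewer groups, a replicate block, another reference gene and leaving out libraries; the lists without CTX140 2 were added after seeing the data. No library was left out or duplicated.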

Additional observations from a re-analysis of the deposited data

Results flagged for a closer look

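Of the 30 sets of a gene in a group, 3 held a library far from the rest, by Dixon's ratio of its gap to the range of the group. Chance flags about 1 in 20 sets of independent, normally distributed values. The genes varied together across libraries, so that rate does not apply to these 30 sets. Adgre1 in CTX140 2 stood at 112 CPM, where the next CTX140 library had 28.3 CPM. Trem2 in the same library stood at 263 CPM, where the next had 95 CPM. Csf1r in PBS 2 stood at 77.7 CPM, where the next PBS library had 135 CPM.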

How the results depend on the processing

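Cx3cr1 in CTX140 against PBS kept its direction and its call under all 18 alternatives. The number of the 10 genes called was 1 instead of 0 in CTX100 against PBS with DESeq2, with log2(FPKM + 1) and with only the 2 groups fitted. It was 1 instead of 2 in CTX140 against PBS with no filter, with FPKM at either pseudocount and with only the 2 groups fitted. Relative to Csf1r it was 0 instead of 1 in CTX140 against PBS with Adgre1 as the reference, and 3 with the variance per gene without moderation. Leaving out 1 library gave 0 to 1 genes in CTX100 against PBS, 1 to 3 in CTX140 against PBS, 0 to 1 in CTX140 against CTX100, and 1 to 3 relative to Csf1r in CTX140 against PBS. The cause was not tested.

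Of the values of single genes over all alternatives, 503 by counts and 331 relative to Csf1r kept their direction and their side of the threshold, and 28 and 21 reversed, all for genes that were not called. With upper quartile factors C1qc was 0.017 in CTX140 against PBS. With FPKM, Trem2 in CTX100 against PBS was -0.0279 (pseudocount 1) and -0.035 (0.1). With Adgre1 as the reference, CTX100 against PBS gave -0.00127 for Mrc1, -0.15 for C1qa, -0.15 for C1qb, -0.50 for C1qc and -0.48 for Mertk; CTX140 against PBS gave -0.17 for Mrc1 and -0.40 for C1qc; CTX140 against CTX100 gave 0.10 for C1qc. Leaving out 1 library, the range in CTX100 against PBS was -0.39 to 0.00387 for Adgre1, -0.49 to 0.16 for Mrc1 and -0.090 to 0.15 for Trem2. In CTX140 against PBS it was -0.41 to 0.95 for Adgre1, -0.62 to 0.041 for Csf1r, -0.42 to 0.31 for Mrc1, -0.18 to 0.57 for C1qa, -0.10 to 0.62 for C1qb, -0.54 to 0.19 for C1qc and -0.32 to 0.67 for Mertk. In CTX140 against CTX100 it was -0.20 to 1.16 for Adgre1 and -0.17 to 0.37 for Mrc1. Relative to Csf1r it was -0.00653 to 0.10 for C1qc and -0.15 to 0.30 for Mertk in CTX100 against PBS, -0.00713 to 0.14 for C1qc in CTX140 against PBS, and -0.34 to 0.00525 for Adgre1, -0.000546 to 0.13 for C1qa and -0.044 to 0.095 for C1qc in CTX140 against CTX100.

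Not all same-numbered libraries varied together: 6 of 13 such pairs had r above 0.1 (range -0.19 to 0.43), among them all 3 pairs of replicate 1, and 4 of 14 libraries correlated best with their own number. With a replicate block 0, 2 and 0 of the 10 genes were called, as without it, and Mrc1 in CTX140 against PBS was 0.025. Over all genes the calls ran from 17 (without PBS 3) to 829 (DESeq2) in CTX100 against PBS, where 245 were called, from 1878 to 3993 in CTX140 against PBS (3268), and from 0 to 1250 in CTX140 against CTX100 (192). Relative to Csf1r they ran from 13 to 1350 (497), 125 to 2348 (924) and 0 to 18 (3). With 4 or 5 libraries a group, SE of 0.26 to 0.64 limit what could be called. Cx3cr1 and Mertk had the fewest counts.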
